A study of Homo sapiens with 12 samples.

Results

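The 8 genes described here encode secreted or shed growth factors through which a tumour cell can stimulate itself. They comprise 4 ligands of the epidermal growth factor (EGF) family (AREG, EREG, HBEGF and TGFA), the KIT ligand KITLG, the interleukin-6-family cytokines IL11 and LIF, and the fibroblast growth factor FGF2. They were chosen by name, and each corresponded to 1 Ensembl identifier among the 25141 genes of the count table. The cells were HOS, an established human osteosarcoma line, in which the adaptor protein CIN85, encoded by SH3KBP1, had been raised or silenced. CIN85 binds the ubiquitin ligase CBL and takes part in the internalisation of activated receptors such as EGFR. The upCIN85 cells were a pool resistant to geneticin after transfection with the pRc/CMV2-Rukl plasmid for full-length CIN85, with Mock cells transfected with the vector alone as their control. In siCIN85 cells CIN85 was silenced with 3 pooled siRNAs, and siNeg cells were given a non-targeting siRNA. Each group had 3 libraries, 12 in all. The labels do not say whether these came from separate cultures, so P-values measure the spread between these samples, which may be technical.

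In the knockdown, IL11 rose 1.88-fold and KITLG rose 1.63-fold relative to siNeg, while FGF2 fell to 0.715 of its siNeg level. These 3 of the 5 genes with enough counts for a test passed it, when the siNeg and siCIN85 libraries of the same number were treated as pairs (replicate block). Without that block none of the 3 passed, and none passed when any of the 6 siRNA libraries was left out. None of the 5 genes passed in the comparison of upCIN85 with Mock. AREG had the largest fold change of the 5 in the knockdown, 2.84-fold, but from 4 to 23 counts a library, and its adjusted P was 0.0686. It was tested only because its siCIN85 libraries, where it was high, passed the filter on low counts. The size and rank of its fold are therefore no independent result. EREG and TGFA were at or near the detection limit in these cells.

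EGF-family ligands are made as membrane-anchored precursors. Proteases of the ADAM family, mainly ADAM17 and ADAM10, release the soluble ligand, which binds EGFR or, for some members, ERBB4 and drives the ERK pathway. KITLG activates the receptor tyrosine kinase KIT. IL11 and LIF each bind a receptor of their own (IL11RA, LIFR) and signal through the shared subunit IL6ST to STAT3, and FGF2 binds FGFR1 to FGFR4 together with heparan sulfate. In bone, IL11, LIF and FGF2 are known as factors that act on osteoblasts and osteoclasts.

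Library totals lay between 5334731 and 6049458 counts in Mock and upCIN85 and between 3540641 and 4174860 in siNeg and siCIN85. Levels are given as CPM (counts scaled to 1e6 per library) after TMM normalization, which scales each library by its total and a factor for composition. The libraries read the 3′ ends of transcripts, and levels are compared between libraries and not between genes. In bulk RNA, a change in the share of expressing cells and a change in RNA per cell cannot be told apart. As a check of the labels, SH3KBP1 stood at 3.88, 8.96 and 9.77 CPM in siCIN85 against 82.6 to 87.2 CPM in siNeg (log2FC -3.52, SE 0.20, edgeR quasi-likelihood test with Benjamini-Hochberg adjustment, adjusted P = 1.02e-08). In the libraries labelled upCIN85 it was at 71.0 to 90.0 CPM against 73.0 to 82.8 CPM in Mock (log2FC 0.07, adjusted P = 0.887), so the counts did not show the plasmid. Whether the plasmid transcript ends in sequence that the counting assigned to SH3KBP1 was not given in the sources used here, and a 3′ tag outside it checks nothing. At the protein level, the paper reports overexpression of full-length CIN85 in HOS cells, with the resistant pool examined by western blot. Of the 9 mesenchymal and bone markers looked at, VIM, COL1A1, COL1A2, SPARC and RUNX2 were present, ALPL was low at group means of 0.253 to 3.26 CPM, IBSP was listed at 0 or close to it, and SP7 and BGLAP had no row in the table.

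Of the 8 genes, 5 passed the filter on low counts that 12542 genes of the series passed: AREG, HBEGF, KITLG, IL11 and FGF2. EREG, TGFA and LIF did not pass it and have no fold change here. Over all genes tested, 1.23% were called at an adjusted P below 0.05 in upCIN85 versus Mock, 3.42% in siCIN85 versus siNeg, 0.526% in siNeg versus Mock and 2.93% in the difference between the 2 CIN85 effects. Among the 5 tested genes the numbers called were 0, 3, 0 and 1 in these comparisons. Split by direction, 1.53% of all genes were called higher and 1.89% lower in siCIN85, against 2 higher and 1 lower of the 5. With so few genes these counts describe the genes and say nothing particular of the set.

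**Figure D1:**
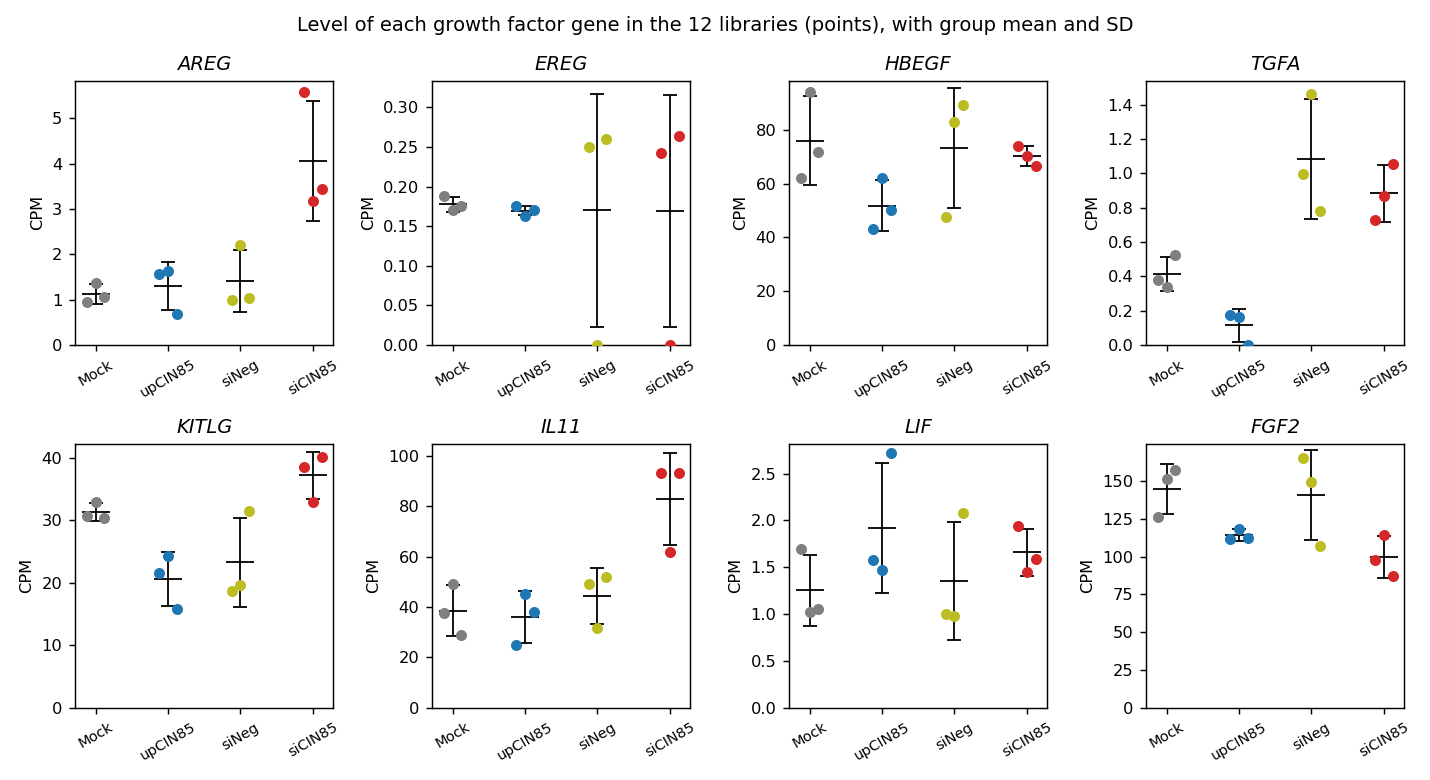
Level of each of the 8 genes in CPM (linear vertical axes starting at 0, with a scale for each gene) in the 3 libraries of each group (points), with the group mean (long bar) and SD (error bars, n = 3). IL11 lies at 61.9 to 93.5 CPM in siCIN85, above every library of the other groups, KITLG is lowest in upCIN85 (15.8 to 24.3 CPM), and EREG never exceeds 1 count.

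AREG (amphiregulin), a low-affinity EGFR ligand, is located on chromosome 4 (GRCh38, 74445134 to 74455009, plus strand), close to EREG on the same chromosome (74365143 to 74388751). It was counted 5, 8 and 6 times in Mock, 9, 10 and 4 times in upCIN85, 4, 9 and 4 times in siNeg, and 23, 11 and 13 times in siCIN85. All 3 siCIN85 libraries were above all other libraries, at 5.58, 3.18 and 3.43 CPM against at most 2.20 CPM elsewhere. AREG passed the filter on low counts only through these 3 libraries, so the test below was made on a gene let in by its rise. In siCIN85 versus siNeg the log2FC was 1.51 (95% confidence interval 0.58 to 2.43, adjusted P = 0.0686), with the value higher in 3 of 3 pairs. Its lowest adjusted P under other settings was 0.0233, in a paired fit of the 6 siRNA libraries alone, and its highest 0.588, without siCIN85 replicate 1, so its place relative to the threshold changed with the setting. Pair 1 differed by 2.08 and pair 2 by 0.46 on the log2 scale. In upCIN85 versus Mock the groups overlapped, with a log2FC of 0.20 (interval -0.79 to 1.20, adjusted P = 0.889).

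HBEGF, a heparin-binding EGFR and ERBB4 ligand on chromosome 5 (140332843 to 140346631, minus strand), was the most deeply counted of the 4 EGF-family genes, with 191 to 555 counts a library. It stood at 61.9, 94.2 and 71.9 CPM in Mock and at 43.0, 61.9 and 50.3 CPM in upCIN85. The highest upCIN85 library reached the lowest Mock library. Libraries of the same number differed by -0.52, -0.60 and -0.51 on the log2 scale. The log2FC of -0.55 (SE 0.20, interval -0.97 to -0.13) had an adjusted P of 0.184, above the threshold. Under other settings the adjusted P ranged from 0.00609 without a filter on low counts to 0.540 without Mock replicate 2. With a replicate block in both experiments it was 0.0147. In siNeg HBEGF stood at 47.7, 82.8 and 89.1 CPM and in siCIN85 at 74.0, 70.3 and 66.5 CPM. Here the pairs disagreed in sign, with siCIN85 higher in pair 1 and lower in pairs 2 and 3. The log2FC was -0.02 (interval -0.42 to 0.38, adjusted P = 0.972), which leaves room for a change of up to about 0.4 on the log2 scale either way. In order of group means, HBEGF ran from Mock (76.0 ± 16.5 CPM, SD, n = 3) through siNeg (73.2 ± 22.3 CPM) and siCIN85 (70.3 ± 3.74 CPM) to upCIN85 (51.8 ± 9.54 CPM), and the libraries of the first 3 groups overlapped.

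TGFA, the EGFR ligand transforming growth factor alpha (chromosome 2, 70447280 to 70554193, minus strand), had 0 to 3 counts in each Mock and upCIN85 library and 3 to 6 in each siNeg and siCIN85 library. Summed over the 3 libraries, Mock had 7 counts, upCIN85 had 2, siNeg had 13 and siCIN85 had 10. Both groups of the overexpression experiment were at or under 3 counts a library, so no fold is given. At these counts the libraries of upCIN85 (0 to 0.175 CPM) lay below those of Mock (0.340 to 0.526 CPM), and those of siNeg (0.781 to 1.47 CPM) above Mock, while siNeg and siCIN85 overlapped. EREG (epiregulin), a ligand of EGFR and ERBB4, was counted once or not at all in every library. A count of 0 in siNeg replicate 2 allows a level of up to 0.719 CPM, and in siCIN85 replicate 2 of up to 0.847 CPM, limits that cover counting error only. For EREG a difference between groups was not detectable at this depth, and TGFA was too low for the test.

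KITLG (stem cell factor), the ligand of KIT, lies on chromosome 12 (88492793 to 88580851, minus strand). It stood at 30.7, 32.9 and 30.3 CPM in Mock, 21.5, 24.3 and 15.8 CPM in upCIN85, 18.7, 19.5 and 31.5 CPM in siNeg, and 38.6, 33.0 and 40.1 CPM in siCIN85. Every siCIN85 library was above every siNeg library, and every upCIN85 library was below every Mock library. Non-overlap of this kind is common in these data: 20.2% of all genes tested did not overlap between siCIN85 and siNeg, and 20.7% did not between upCIN85 and Mock. KITLG had a log2FC of 0.70 in siCIN85 versus siNeg (SE 0.17, interval 0.34 to 1.06, adjusted P = 0.0312 in edgeR's quasi-likelihood test). In upCIN85 versus Mock it was -0.61 (SE 0.19, interval -1.004 to -0.208, adjusted P = 0.118), which missed the threshold. The difference between the 2 effects was itself tested and passed, at -1.31 on the log2 scale (SE 0.24, interval -1.81 to -0.81, adjusted P = 0.00699). Without the replicate block it was -1.29 with an adjusted P of 0.0331. It did not pass without siNeg replicate 1 or without siCIN85 replicate 1, where the adjusted P reached 0.0682. In the control groups the log2FC of siNeg versus Mock was -0.43 (interval -0.84 to -0.02, adjusted P = 0.372), which did not pass, and 2 of the 3 siNeg libraries lay within the range of upCIN85.

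IL11, a cytokine that signals through IL11RA and IL6ST, is located on chromosome 19 (55364389 to 55370463, minus strand). Its level was 37.4, 49.2 and 28.9 CPM in Mock, 25.004, 45.3 and 37.9 CPM in upCIN85, 49.2, 31.5 and 52.1 CPM in siNeg, and 93.4, 61.9 and 93.5 CPM in siCIN85. The 3 siCIN85 libraries were the 3 highest of the 12. The order of group means was siCIN85 (82.9 ± 18.2 CPM), siNeg (44.3 ± 11.1 CPM), Mock (38.5 ± 10.2 CPM) and upCIN85 (36.1 ± 10.3 CPM), and only the step from siCIN85 to siNeg was free of overlap. The 3 pairs gave almost the same difference, 0.92, 0.96 and 0.84 on the log2 scale. The log2FC in siCIN85 versus siNeg was 0.91 (SE 0.19, interval 0.51 to 1.31, adjusted P = 0.014). In upCIN85 versus Mock it was -0.09 (SE 0.24, interval -0.60 to 0.41, adjusted P = 0.898). The difference between these effects was -1.01 (SE 0.27, adjusted P = 0.0524), and therefore a different response of IL11 in the 2 experiments was not established at the threshold.

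LIF (leukaemia inhibitory factor), the ligand of LIFR on chromosome 22 (30240447 to 30246851, minus strand), had 4 to 16 counts a library and did not pass the filter. Its group means were 1.25 ± 0.38 CPM in Mock, 1.92 ± 0.693 CPM in upCIN85, 1.35 ± 0.632 CPM in siNeg and 1.66 ± 0.256 CPM in siCIN85. The libraries of neighbouring groups overlapped throughout this order. A difference between groups was not detectable for LIF at this depth.

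FGF2 (basic fibroblast growth factor), which lacks a conventional secretion signal, is located on chromosome 4 (122826708 to 122898236, plus strand) and had 330 to 899 counts a library. Its level was 126, 151 and 158 CPM in Mock, 112, 119 and 112 CPM in upCIN85, 165, 150 and 107 CPM in siNeg, and 97.8, 115 and 87.1 CPM in siCIN85. The upCIN85 libraries were all below the Mock libraries, whereas siCIN85 replicate 2 was above siNeg replicate 3. Within pairs, siCIN85 was lower in 3 of 3, by -0.75, -0.38 and -0.30 on the log2 scale. Among all genes tested, 45.2% had 1 direction in all 3 pairs. The log2FC was -0.48 in siCIN85 versus siNeg (SE 0.12, interval -0.73 to -0.24, adjusted P = 0.0277) and -0.35 in upCIN85 versus Mock (SE 0.14, interval -0.64 to -0.05, adjusted P = 0.258). The difference between the 2 effects was 0.14 (interval -0.20 to 0.47, adjusted P = 0.723). FGF2 overlaps NUDT6 on the opposite strand, including its last 1000 bases, and whether the counting used strand was not given in the sources used here. NUDT6 had 17 to 49 counts a library, with a log2FC of -0.02 in siCIN85 versus siNeg (adjusted P = 0.985).

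**Figure D2:**
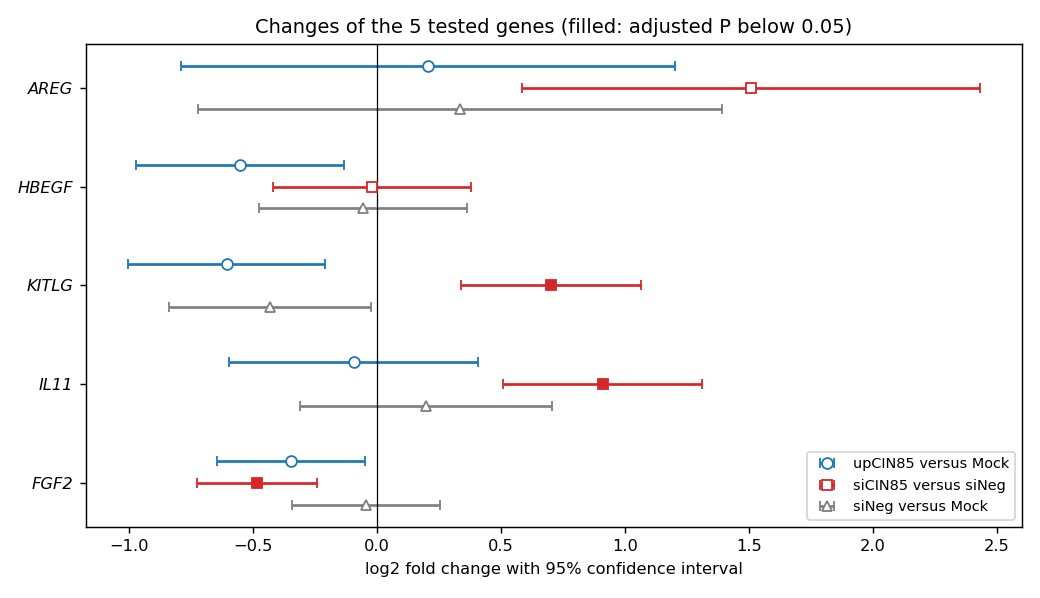
Log2 fold change (horizontal axis) with its 95% confidence interval for the 5 tested genes in upCIN85 versus Mock (circles), siCIN85 versus siNeg with the replicate block (squares) and siNeg versus Mock (triangles), with filled symbols for an adjusted P below 0.05. The filled symbols are those of KITLG (0.70), IL11 (0.91) and FGF2 (-0.48) in the knockdown, and KITLG has intervals on opposite sides of 0 in the 2 CIN85 comparisons.

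The calls in the knockdown rested on the pairing. Deviations of same-numbered siNeg and siCIN85 libraries from their group means correlated across genes with r of 0.353, 0.269 and 0.446, whereas libraries with different numbers had r between -0.287 and -0.0589. Deviations within a group sum to 0 for each gene, so positive r for the same numbers bring negative r for the others. The negative r are therefore no separate evidence of pairing. Without the replicate block, the log2FC stayed at 0.91 for IL11, 0.68 for KITLG and -0.50 for FGF2, with adjusted P of 0.0723, 0.0997 and 0.107. With 1 of the 6 siRNA libraries left out in turn, the adjusted P ranged from 0.0716 to 0.224 for IL11, from 0.0653 to 0.435 for KITLG and from 0.07 to 0.442 for FGF2. Across the same 6 fits the log2FC ranged from 0.87 to 0.94 for IL11, from 0.53 to 0.89 for KITLG and from -0.58 to -0.35 for FGF2, so the directions held in each. A library left out leaves 2 pairs, and the number of genes called over the whole table then fell from 429 to between 9 and 235, with the fewest (9 and 12) without siCIN85 or siNeg replicate 1. The smallest P that an exact two-sided permutation test allows with 3 libraries a group is 0.1, and it was reached by AREG, KITLG and IL11 in the knockdown, by KITLG, FGF2 and TGFA in upCIN85 versus Mock, and by TGFA in siNeg versus Mock. This P goes with groups that do not overlap, as held for 20.2% of all genes tested in the knockdown and 20.7% in upCIN85 versus Mock. For siNeg versus Mock that share was not computed, and TGFA had 0 to 6 counts a library.

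**Figure D3:**
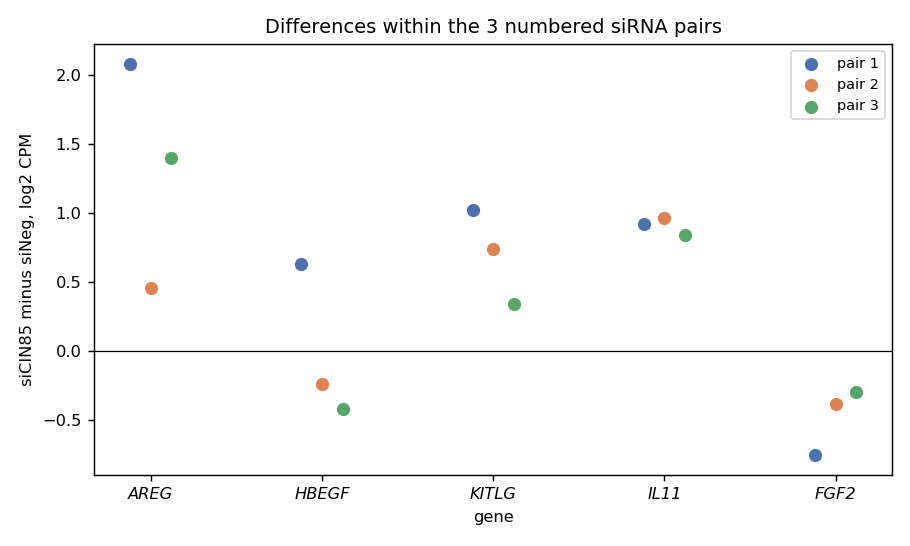
Difference in log2 CPM between siCIN85 and siNeg (vertical axis) within each of the 3 pairs of same-numbered libraries (colours), for the 5 tested genes. The IL11 points lie between 0.84 and 0.96, the FGF2 points between -0.75 and -0.30, and HBEGF has 1 pair above and 2 below 0.

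Windows before the RefSeq start sites of the 3 genes called in the knockdown are shown to set the 2 genes that rose beside the 1 that fell. They are the 250 bases before the RefSeq start site on GRCh38.p14, printed 5′ to 3′ on the strand of the gene, from chr19:55370464-55370713 (IL11, minus strand), chr12:88580472-88580721 (KITLG, minus strand) and chr4:122826581-122826830 (FGF2, plus strand). Capitals mark matches on either strand to 5 short motifs: TGANTCA, which AP-1 factors bind, TGACGTCA, known as the cAMP response element, CCGGAAG, which ETS factors bind, TATAAA, known as the TATA box, and GGGCGG, which SP1 binds and which is known as the GC box.
IL11: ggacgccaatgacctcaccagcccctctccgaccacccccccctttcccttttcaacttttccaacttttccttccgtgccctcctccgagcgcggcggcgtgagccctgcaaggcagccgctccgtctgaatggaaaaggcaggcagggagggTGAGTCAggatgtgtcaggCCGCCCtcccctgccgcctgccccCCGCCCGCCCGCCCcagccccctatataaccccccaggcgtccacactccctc
KITLG: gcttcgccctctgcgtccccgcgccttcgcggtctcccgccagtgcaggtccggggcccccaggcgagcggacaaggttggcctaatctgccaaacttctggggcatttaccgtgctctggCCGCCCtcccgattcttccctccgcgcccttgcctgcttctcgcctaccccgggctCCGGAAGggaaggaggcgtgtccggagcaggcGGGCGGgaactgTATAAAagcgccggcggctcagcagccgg
FGF2: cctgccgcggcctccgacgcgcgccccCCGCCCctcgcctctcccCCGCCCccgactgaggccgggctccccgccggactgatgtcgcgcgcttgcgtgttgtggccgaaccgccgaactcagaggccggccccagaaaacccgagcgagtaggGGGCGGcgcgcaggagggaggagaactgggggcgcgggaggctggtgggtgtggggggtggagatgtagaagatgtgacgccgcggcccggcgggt
By the gene positions given above, the IL11 window lies before IL11, the KITLG window within KITLG and the FGF2 window partly within FGF2. For those 2 genes the RefSeq start site differs from the start of the gene positions. The IL11 window held 1 AP-1 match, beginning 96 bases before the start site, and 4 GC boxes, the last 3 of which run into each other. The KITLG window held an ETS match 73 bases and a TATA box 29 bases before the start, with 2 GC boxes. The FGF2 window held 3 GC boxes and no match to the other 4 motifs. Among all 35116 RefSeq windows of the same length, 6.57% held the AP-1 letters, 1.65% the cAMP response element, 8.52% the ETS letters, 10.7% the TATA box and 42.6% the GC box. Of the other genes, AREG had a cAMP response element 65 bases, a TATA box 29 bases and a GC box 9 bases before its start, and EREG had a TATA box 32 bases before its start. HBEGF and TGFA, like FGF2, had GC boxes and no match to the other 4 motifs. In all, 7 of the 8 genes had an entry, LIF having none. These matches are letters in a window and do not show binding.

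The receptors of these ligands were measured in the same libraries. EGFR stood at 73.6 ± 9.23 CPM in Mock, 84.7 ± 10.9 CPM in upCIN85, 69.9 ± 23.6 CPM in siNeg and 78.8 ± 24.3 CPM in siCIN85. ERBB2, the partner that binds no ligand itself, stood at 24.2 ± 2.64, 19.7 ± 4.33, 19.4 ± 2.64 and 18.1 ± 1.13 CPM in the same order. Neither passed the test in either CIN85 comparison (EGFR log2FC 0.20 and 0.18, adjusted P = 0.712 and 0.482 in edgeR's test, ERBB2 log2FC -0.29 and -0.10, adjusted P = 0.454 and 0.828). ERBB3 was near the detection limit at group means of 0.258 to 1.01 CPM, and ERBB4 had no row. Of the 8 receptors of the other factors, none passed in either comparison. KIT was low, at 5.72 ± 1.55 CPM in Mock and 6.49 ± 1.13 CPM in siCIN85, and IL11RA stood at 15.96 ± 2.52 and 17.9 ± 2.81 CPM in these groups. IL6ST (80.7 to 110 CPM by group mean), LIFR (29.7 to 41.2 CPM) and FGFR1 (148 to 188 CPM) were detected in every group, and FGFR2, FGFR3 and FGFR4 had group means of 1.12 to 8.30 CPM. FGFR1 had a log2FC of 0.34 in siCIN85 versus siNeg (SE 0.11, adjusted P = 0.0884).

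Other ligands of the same receptors did not pass either in the fit used throughout. Of the 7 further ERBB ligands, EGF and NRG1 were tested, with log2FC of -0.56 (adjusted P = 0.488) and -0.15 (adjusted P = 0.614) in the knockdown. Of 8 other genes of the FGF ligand list, 3 were tested, and all 3 had positive values in the knockdown: FGF1 0.66 (adjusted P = 0.0707), FGF5 0.59 (adjusted P = 0.285) and FGF18 1.14 (adjusted P = 0.345). Of 8 interleukin-6-family cytokines and STAT3 feedback genes, 5 were tested and 0 passed in either comparison. SOCS3, a feedback inhibitor induced by STAT3, had a log2FC of 0.00 in the knockdown (SE 0.21, adjusted P = 0.998). Of 20 other secreted growth factors, 15 were tested and 0 passed in either comparison. VEGFA had the lowest adjusted P of these in upCIN85 versus Mock (log2FC 0.81, adjusted P = 0.0667) and BMP4 in the knockdown (log2FC -0.62, adjusted P = 0.0555). All 8 genes of ligand shedding were tested and 0 passed, with ADAM17 at -0.04 in upCIN85 versus Mock and -0.15 in the knockdown and ADAM10 at -0.27 and -0.29. Other settings gave calls in the knockdown. Without a filter and in the paired 6-library fit, 1 other FGF gene and 2 shedding genes were called higher. In these fits 3 other secreted growth factors were called lower, and 777 and 1248 genes were called in all, in place of 429. DESeq2, with 429 genes called, had 1 FGF gene higher and 1 other secreted growth factor lower. In upCIN85 versus Mock, DESeq2 had 1 other secreted growth factor higher and 1 lower, with 321 genes called in all. The 6-library fit had 1 higher, with 281 genes called. Without a filter, 1 was higher and 3 were lower, and 1 shedding gene was higher, with 637 genes called. A block in both experiments called genes of these lists too, with 1035 genes called in all, as did some fits with 1 library left out.

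Among 6 inhibitors of ERBB receptors, all tested, 1 passed in each comparison. CBL, the ubiquitin ligase that CIN85 binds, fell in upCIN85, from 158 ± 14.5 to 110 ± 9.33 CPM (log2FC -0.53, adjusted P = 0.0204), and in the knockdown had a log2FC of 0.30 (adjusted P = 0.113). The difference between these 2 effects was -0.84 (adjusted P = 0.00521). ERRFI1, an inhibitor of the EGFR kinase that ERK signalling induces, rose in the knockdown from 54.0 ± 17.3 to 75.4 ± 14.1 CPM (log2FC 0.50, adjusted P = 0.0459). ERRFI1 did not pass without the replicate block (adjusted P = 0.218) or without any of the 6 siRNA libraries in turn (adjusted P of 0.097 to 0.303). CBL in upCIN85 did not pass without Mock replicate 2 or 3 or upCIN85 replicate 1 or 3, where its adjusted P reached 0.135.

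Of the lists of related genes, that of genes known to respond to ERK signalling (ERK output genes) had the most calls. Of its 14 genes, 13 were tested, and 7 rose and 0 fell in the knockdown: DUSP4 (log2FC 1.57, SE 0.24), DUSP5 (1.34, SE 0.24), ETV4 (1.30, SE 0.24), FOSL1 (0.99, SE 0.23), DUSP6 (0.98, SE 0.25), CCND1 (0.73, SE 0.15) and SPRY2 (0.71, SE 0.17), with adjusted P between 0.00221 and 0.0348. The DUSP genes encode phosphatases that switch off ERK and related kinases, SPRY2 is a feedback inhibitor of receptor signalling, ETV4 and FOSL1 are transcription factors, and CCND1 is cyclin D1. The median log2FC of the 13 was 0.71, against a median of -0.005 over all genes tested. Over all genes tested, 1.53% were called higher and 1.89% lower in siCIN85. The list was chosen with earlier results of these data known, so its calls are no independent test. In upCIN85 versus Mock 0 of 13 passed, with a median of -0.10. Without the replicate block 4 of the 13 passed in the knockdown. DESeq2 called 5 higher, without DUSP6 (adjusted P = 0.108) and SPRY2 (adjusted P = 0.0739), and 1 lower, IER3 (adjusted P = 0.0416). Without the filter on low counts, in a paired fit of the 6 siRNA libraries, and with a block in both experiments, 9 were called higher and 1 lower. With 1 siRNA library left out, the number that passed was 0 (siNeg replicate 1, siCIN85 replicate 1 or siCIN85 replicate 3), 1 (siNeg replicate 3) or 5 (siNeg or siCIN85 replicate 2). EGR1, an immediate early target, had a log2FC of 0.34 (adjusted P = 0.626), and IER3 one of -0.49 (adjusted P = 0.0825).

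**Figure D4:**
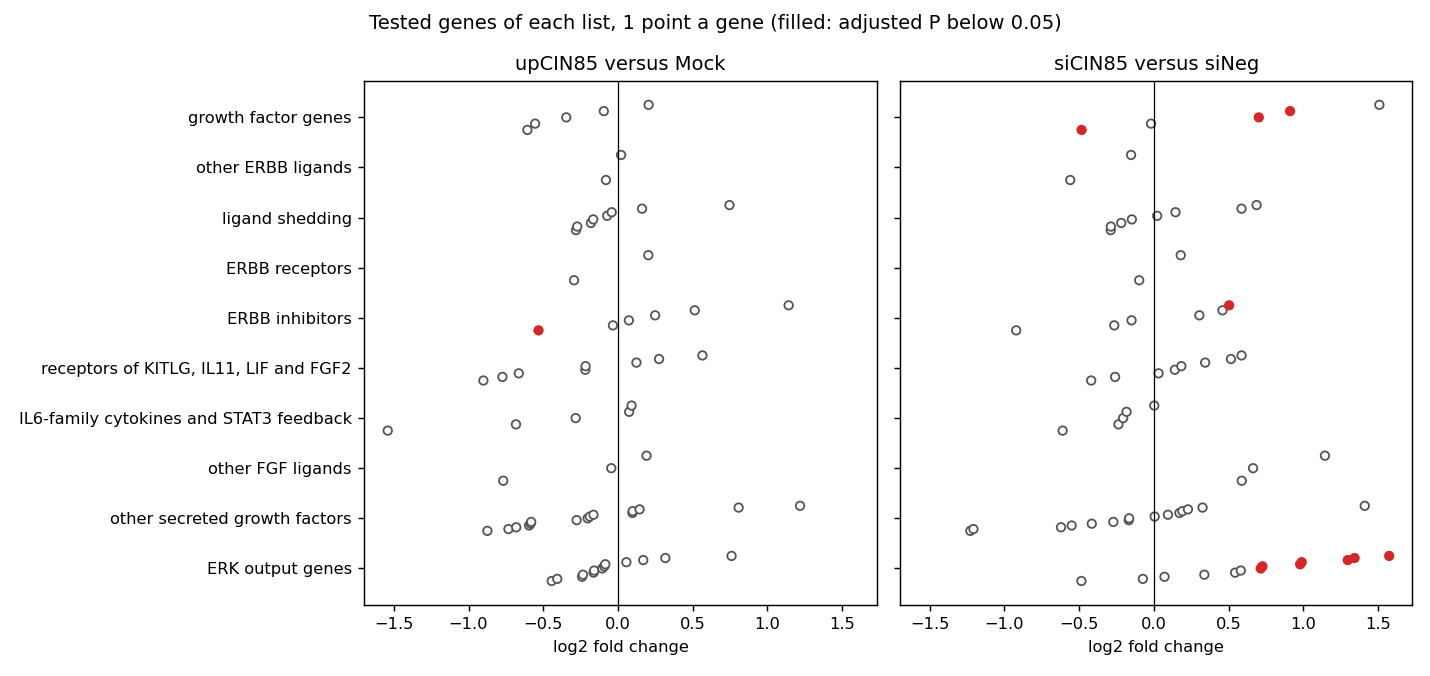
Log2 fold change (horizontal axis) of every tested gene of the growth factors and of 9 lists of related genes, in upCIN85 versus Mock (left) and siCIN85 versus siNeg with the replicate block (right), with 1 point a gene and filled points for an adjusted P below 0.05. In the knockdown 7 of 13 ERK output genes are filled, all to the right of 0, while no receptor, shedding gene or other ligand is.

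Of the mesenchymal and bone markers, COL1A1 (log2FC -0.72, adjusted P = 0.0353) and SPARC (-0.46, adjusted P = 0.0102) fell in the knockdown, and COL1A2 (1.35, adjusted P = 0.0439) and ALPL (1.76, adjusted P = 0.034) rose in upCIN85, where no growth factor was called, of 6 tested. ALPL passed the filter on low counts only through upCIN85, at a mean of 3.26 CPM against 0.253 to 0.947 CPM in the other groups. Its call is therefore no independent result. The summed level of the 7 mesenchymal and bone markers in the table was 1190 to 1601 CPM in siCIN85 against 1719 to 2086 CPM in siNeg. The epithelial markers EPCAM and CDH1 summed to 44.8 to 54.9 CPM in siCIN85 and 49.4 to 60.7 CPM in siNeg, and to 69.8 to 82.6 CPM in upCIN85 against 50.6 to 56.1 CPM in Mock, with neither gene called, and KRT5 and KRT14 had no row. Each of these 4 calls was lost with at least 4 of the 6 libraries of its comparison left out in turn, where the highest adjusted P were 0.238 for COL1A1, 0.221 for SPARC, 0.253 for COL1A2 and 0.181 for ALPL. Without the replicate block neither knockdown call passed (adjusted P = 0.0903 for COL1A1 and 0.174 for SPARC), and DESeq2 called neither COL1A1 (adjusted P = 0.112) nor COL1A2 (adjusted P = 0.0594). ALPL had no adjusted P in DESeq2, which called 0 of the 6 markers in upCIN85 versus Mock. The 4 blood cell markers with a row summed to 3.18 to 5.34 CPM in siCIN85 against 1.71 to 2.34 CPM in siNeg, without overlap. None of the 4 passed the filter on low counts. CD68 stood at 2.29 ± 1.39 CPM in siCIN85 against 0.592 ± 0.301 CPM in siNeg, CD14 at 1.68 ± 0.352 against 1.43 ± 0.16 CPM, and PTPRC and CD3E were at or near 0. HBB had no row, and endothelial markers summed to at most 6.80 CPM. The part of these marker differences in the changes of the growth factors was not tested.

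Over the 12 libraries, the genes whose log2 CPM ran most closely with each factor were taken from 10399 genes with a mean of at least 5 CPM, as a description in which all points share libraries and groups. Closest to IL11 were IER2 (Pearson r 0.949), OAF (0.944) and PPP1R9B (0.924). Closest to KITLG were PSME3 (0.946), UBTD1 (0.908) and AC012065.5 (0.907). FGF2 ran with DOK4 (0.930), BST1 (0.921) and MYL9 (0.919), AREG with TLE1 (0.929), RIMS4 (0.922) and NBL1 (0.916), and HBEGF with NR2C1 (0.896), METTL3 (0.885) and PPP5C (0.883). Of these 15 genes, OAF (log2FC 1.03, adjusted P = 0.00223), TLE1 (0.78, adjusted P = 0.01) and RIMS4 (0.54, adjusted P = 0.0291) rose and MYL9 fell (-0.59, adjusted P = 0.00838) in the knockdown. Over all genes tested, 3.42% were called in that comparison. The 15 genes were picked on these same libraries, so changes like those of the factors follow in part from the choice and are no separate support. Without the replicate block OAF and TLE1 passed (adjusted P = 0.0252 and 0.0399), and each of the 4 lost its call without siNeg replicate 1 (for OAF, an adjusted P of at most 0.0748).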

How the data were processed

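Gene expression was measured in 12 HOS libraries made with a QuantSeq 3′ FWD kit with unique molecular identifiers. Per the labels' processing notes, reads were handled with cutadapt 4.3, STAR 2.7.3a, Picard 2.25.6 and featureCounts of Subread 2.0 on GRCh38. Whether identifiers were collapsed and whether counting used strand is not given in the sources used here. The authors deposited raw counts per gene for 25141 Ensembl identifiers. Symbols and positions came from GENCODE release 29, in which 95 identifiers had no match.

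Counts were tested in R 4.3.3 with edgeR 4.0.16 (filterByExpr with a minimum count of 10, TMM, quasi-likelihood test, two-sided, Benjamini-Hochberg over 12542 genes, threshold 0.05) on all 12 libraries with a mean per group. In siCIN85 versus siNeg, and in the difference of effects, the replicate number was a block among the 6 siRNA libraries. This block was chosen with results of these data known, and none was used for Mock and upCIN85. The same-numbered siRNA libraries correlated in their deviations (r of 0.353, 0.269 and 0.446), with the pairing taken from the labels' numbers. SE was log2FC divided by the square root of F. Log2 CPM used a prior count of 2. Tests were checked on simulated counts. No 2 libraries of a group agreed within sampling noise. Alternatives were DESeq2 1.42.0, RLE factors, other filters, other blocks, fits of 6 libraries and each library left out.

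Named genes were the 8 factors, SH3KBP1, list genes passing in a CIN85 comparison, the receptors, and the 3 genes most correlated with each tested factor. Others were named after their values were seen: EGF, NRG1, FGF1, FGF5, FGF18, SOCS3, VEGFA, BMP4, ADAM17, ADAM10, EGR1, IER3, NUDT6 and the markers given by level. The 5 promoter motifs were also picked then. The genes and lists were chosen with earlier results of these data known.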

Additional observations from a re-analysis of the deposited data

Results flagged for a closer look

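KITLG was the only one of the 5 tested growth factors whose change differed between the overexpression and the knockdown experiment by a test of the difference itself (edgeR quasi-likelihood test, adjusted P = 0.00699). The change in upCIN85 versus Mock minus the change in siCIN85 versus siNeg was -1.31 on the log2 scale, from effects of -0.61 and 0.70. All 3 upCIN85 libraries were below all 3 Mock libraries, and all 3 siCIN85 libraries were above all 3 siNeg libraries. The overexpression effect alone did not pass its test, and SH3KBP1 counts were not higher in the libraries labelled upCIN85. The paper reports the overexpression at the protein level, by western blot.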

How the results depend on the processing

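With the replicate number left out of the knockdown (no replicate block), 0 of the 5 tested growth factors were called in siCIN85 versus siNeg in place of 3, and leaving out single libraries gave between 0 and 3. Over all genes, 131 were called without the block in place of 429. In upCIN85 versus Mock, fitted without a block, no factor was called. Same-numbered libraries there had r of 0.326, 0.227 and 0.0989, and libraries with different numbers had r between -0.298 and 0.0303. A replicate block in both experiments called 3 (HBEGF, KITLG and FGF2), with 1035 genes called in all in place of 154. Testing without a filter on low counts called 2 (HBEGF and KITLG), with 637 genes called in all. For the difference between the 2 effects, 1 factor (KITLG) was called, and 2 (KITLG and IL11) without a filter, with a block in both experiments and with DESeq2, while leaving out single libraries gave between 0 and 2. Over all genes, those 3 settings called 746, 918 and 337 in the difference, in place of 368. In siNeg versus Mock no setting called a factor.

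No value whose sign changed was called in any setting. With single libraries left out, IL11 in upCIN85 versus Mock ranged from -0.29 to 0.12, positive at 0.12 and 0.11 without Mock replicate 2 and upCIN85 replicate 1. HBEGF in the knockdown ranged from -0.33 to 0.18, at 0.08, 0.18, 0.08 and 0.18 without siNeg replicates 2 and 3 or siCIN85 replicates 2 and 3. In siNeg versus Mock, AREG ranged from -0.13 (siNeg replicate 2) to 0.53, HBEGF from -0.22 to 0.17, with 0.13 without Mock replicate 2, and FGF2 from -0.18 to 0.12, with 0.02 without Mock replicate 3. FGF2 in the difference ranged from -0.0011 to 0.24. The cause was not tested. AREG, LIF, TGFA and EREG are limited by depth.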
